A study of Mus musculus with 27 samples.

Results

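Collagen chains are the genes whose symbol is Col, a type number, the letter a and a chain number. Of the 57683 features in the deposited counts, 41 matched that rule. Values are mRNA counts from polyadenylated RNA of C57BL/6J mouse hearts, an inbred laboratory strain with no transgene or mutant allele named in the labels. Whole hearts came from 7 embryos titled E13.5, a stage counted in embryonic days. Ventricular apexes came from 4 adults of 12 weeks operated 4 weeks earlier for transverse aortic constriction (TAC), in which a band narrows the aorta and raises the pressure the left ventricle pumps against. The other apexes came from 4 sham-operated adults of 12 weeks, 6 unoperated adults of 16 weeks and 6 unoperated adults of 6 weeks. The adults were labelled male, except 1 TAC heart labelled female, and the sex of the embryos was not given.

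Collagens are built from chains whose repeated glycine lets them wind into a triple helix, which is secreted and assembled outside the cell. Fibrillar types form the tensile fibres of the heart wall, type IV forms the sheet of the basement membrane around muscle cells and capillaries, and type VI forms beaded filaments between fibres and basement membranes. Smaller classes decorate fibrils, link basement membranes to the matrix, form short-chain networks or span the cell membrane. In the heart, fibroblasts are the main source of fibrillar chains, and endothelial, smooth muscle and other cells contribute basement membrane chains. Under pressure overload, interstitial collagen is known to build up in the ventricle.

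Library depth was 7543375 to 12646039 counts at E13.5, from 10411417 to 11846819 in TAC hearts, from 7958592 to 11561952 in sham hearts, from 2164604 to 2642307 at 16 weeks and from 2092270 to 2682955 at 6 weeks. Between E13.5 and the unoperated adults, stage therefore went with depth, with base quality encoding and with the piece of heart taken. The effect of stage cannot be told apart from theirs in that comparison. Sham and TAC hearts shared the encoding of the E13.5 libraries and were of similar depth, but differed from them in the piece of heart and in surgery. The 7 cardiomyocyte markers fixed for this work were detected in each group, at a summed 18481 to 24460 CPM at E13.5 and at 90571 to 142988 CPM over the 4 adult groups. CPM are counts relative to library size, with scaling factors taken over all 27 libraries. Y-linked counts went against the labelled sex in 2 libraries of each adult group, among them TAC replicate 3 and the TAC heart labelled female, and sham replicates 2 and 3. P-values measure the spread between these libraries. In tissue RNA, fewer cells of a type and less RNA per cell cannot be told apart.

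The collagen chains together took 1.14 ± 0.16% of all counts at E13.5 (SD, n = 7). They took 0.859 ± 0.171% in TAC hearts and 0.364 ± 0.030% in sham hearts (SD, n = 4 each). At 16 weeks they took 0.380 ± 0.030%, and at 6 weeks 0.486 ± 0.093% (SD, n = 6 each). TAC libraries lay between 0.655% and 1.07%, and sham libraries between 0.331% and 0.402%, so these groups did not overlap. Of the 6-week libraries, replicate 3 was lowest at 0.319%, and the other 5 lay between 0.444% and 0.577%.

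Levels of different chains were compared per length, as CPM divided by the kilobases of exon that no other feature of the deposited annotation overlaps. On this scale Col4a1 and Col4a2, the basement membrane chains found in nearly every tissue, ranked first and second in all 4 adult groups. Col4a1 stood at 369 ± 40 CPM per kb in TAC hearts and 173 ± 7.5 in sham hearts (SD, n = 4 each), with 159 ± 14 at 16 weeks and 191 ± 48 at 6 weeks (SD, n = 6 each). At E13.5 the first rank was held by Col1a1, the main chain of type I fibrils, at 242 ± 83 CPM per kb (SD, n = 7). Col3a1, which forms type III fibrils, followed there at 179.9 ± 32.9 CPM per kb, then Col4a1 at 171 ± 13, Col4a2 at 132 ± 11 and Col18a1 at 92.8 ± 8.6. The spreads of Col1a1, Col3a1 and Col4a1 at E13.5 overlapped, but these chains were measured in the same libraries. Within libraries Col1a1 was above Col3a1 in every embryo, at a Col3a1 to Col1a1 ratio of 0.580 to 0.989. The order of Col4a1 against these 2 chains was not tested. Col3a1 ranked below both Col4a1 and Col4a2 when all exonic bases were used as the length.

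Summed by class, fibrillar chains made up 50.8 ± 4.4% of collagen CPM per kb at E13.5 (SD, n = 7), against 27.3 ± 1.2% at 16 weeks and 30.1 ± 3.8% at 6 weeks (SD, n = 6 each). They made up 33.0 ± 5.8% in TAC hearts, against 24.4 ± 2.0% in sham hearts (SD, n = 4 each). Type IV chains ran the other way, with 28.4 ± 3.8% at E13.5, against 48.2 ± 3.2% at 16 weeks and 46.5 ± 5.9% at 6 weeks. In TAC hearts type IV chains held 44.8 ± 5.3%, against 51.4 ± 1.9% in sham hearts. The summed level itself was 1246 ± 164 CPM per kb at E13.5, 1649.9 ± 284 in TAC hearts, 668 ± 29 in sham hearts, 659 ± 62 at 16 weeks and 823 ± 152 at 6 weeks. The type IV sum was therefore higher in TAC hearts, at 729.8 ± 73.6 CPM per kb, than in sham hearts, at 343 ± 14, although its share was lower. For all chains summed, TAC hearts stood above E13.5 hearts on this scale, but below them as a share of raw counts, at 0.859% against 1.14%. Scaling factors were 1.36 to 1.47 at E13.5 and 0.792 to 0.858 in TAC hearts. Short-chain types VIII and X held 2.52 ± 0.37% in TAC hearts, against 1.25 ± 0.13% in sham hearts, and only 0.439 ± 0.125% at E13.5. Transmembrane chains held 2.02 ± 0.33% at E13.5, 0.0715 ± 0.0113% in TAC hearts, 0.154 ± 0.010% in sham hearts, 0.304 ± 0.070% at 16 weeks and 0.188 ± 0.076% at 6 weeks.

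**Figure D1:**
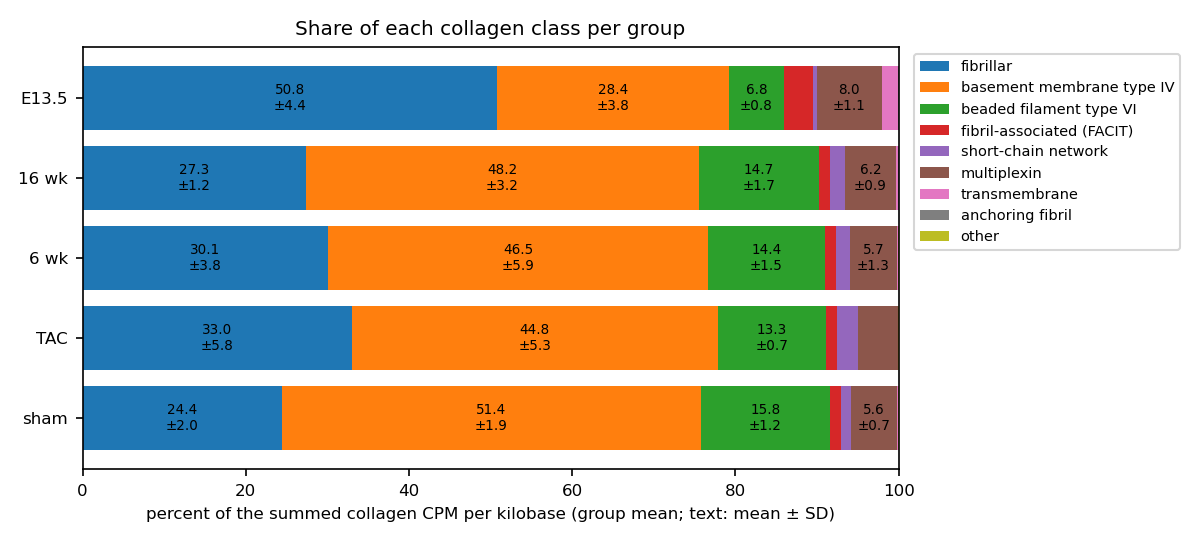
Share of summed collagen CPM per kb (percent, x axis) held by each collagen class, as stacked horizontal bars of group means for E13.5, 16-week, 6-week, TAC and sham hearts from top to bottom, with mean ± SD written in the larger segments. Fibrillar chains hold 50.8% at E13.5 and 24.4% to 33.0% in the 4 adult groups, where type IV chains hold the largest share.

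Promoter sequence is shown for Col1a2 and Col3a1, main chains of the interstitial fibrils that the reference table holds, and for Col4a1 and Col4a2, which start back to back. Each window runs from 250 bases before to 50 bases after the gene start, 5′ to 3′ on the gene's own strand, from RefSeq on GRCm38.p6. Capitals mark matches to the CCAAT box, to the TATAAA box and to the GC box, GGGCGG, in either orientation. Col1a2 lies at chr6:4505368-4505667 on the plus strand, Col3a1 at chr1:45311288-45311587 on the plus strand, Col4a1 at chr8:11312777-11313076 on the minus strand and Col4a2 at chr8:11312555-11312854 on the plus strand.
Col1a2: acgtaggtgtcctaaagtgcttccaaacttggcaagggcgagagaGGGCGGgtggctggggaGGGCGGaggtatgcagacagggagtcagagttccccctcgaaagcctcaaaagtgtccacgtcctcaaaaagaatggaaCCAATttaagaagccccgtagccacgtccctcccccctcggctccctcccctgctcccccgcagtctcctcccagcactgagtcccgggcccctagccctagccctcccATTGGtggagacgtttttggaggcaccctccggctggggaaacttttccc
Col3a1: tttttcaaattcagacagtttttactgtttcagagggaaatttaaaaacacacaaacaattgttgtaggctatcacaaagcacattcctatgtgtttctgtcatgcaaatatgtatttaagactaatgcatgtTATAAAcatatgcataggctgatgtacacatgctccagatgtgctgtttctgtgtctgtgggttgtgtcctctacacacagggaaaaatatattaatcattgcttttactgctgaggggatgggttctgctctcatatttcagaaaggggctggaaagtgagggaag
Col4a1: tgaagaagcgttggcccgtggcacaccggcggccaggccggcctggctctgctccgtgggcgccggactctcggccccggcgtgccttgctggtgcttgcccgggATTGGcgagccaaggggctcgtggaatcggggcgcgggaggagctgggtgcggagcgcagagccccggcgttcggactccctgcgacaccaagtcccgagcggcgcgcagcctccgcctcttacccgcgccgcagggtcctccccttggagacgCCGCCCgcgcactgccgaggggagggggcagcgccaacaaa
Col4a2: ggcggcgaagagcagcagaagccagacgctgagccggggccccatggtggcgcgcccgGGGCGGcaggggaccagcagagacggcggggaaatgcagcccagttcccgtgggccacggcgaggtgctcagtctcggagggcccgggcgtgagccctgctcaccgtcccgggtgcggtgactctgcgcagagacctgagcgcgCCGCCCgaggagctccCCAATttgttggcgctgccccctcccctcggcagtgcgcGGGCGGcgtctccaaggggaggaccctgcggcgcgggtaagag
The Col1a2 window holds 2 CCAAT and 2 GGGCGG matches, and the Col3a1 window holds 1 TATAAA match and neither of the others. The Col4a1 window holds 1 CCAAT and 1 GGGCGG match, and the Col4a2 window holds 1 and 3. The starts of Col4a1 and Col4a2 lie 21 bases apart and their windows share 78 bases, so 1 stretch of DNA is counted for both. Col4a5 and Col4a6, the other back-to-back pair in the table, start 1343 bases apart. Of 36 collagen windows from 33 genes, 58.3% held GGGCGG, 33.3% CCAAT and 13.9% TATAAA. Over all 32544 promoter windows of the same length these shares were 35.9%, 37.4% and 13.6%. CAGAC and GGAATG were also searched on both strands, and were in 55.6% and 13.9% of collagen windows, against 49.5% and 14.6% of all windows. A match of letters is a description and not a measured binding site.

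The first comparison asked which collagen chains differ in the pressure-loaded heart, TAC against sham. After edgeR's filter on low counts, 32 of the 41 chains were tested. Higher calls, at an adjusted p under 0.05 from edgeR's quasi-likelihood test with Benjamini-Hochberg adjustment over all features, were made for 23 chains, against a background of 19.6% of the 14555 features tested. Lower calls were made for 0 chains, against 18.4% of features, and 9 chains were not called. In either direction 23 of the 32 tested chains were called, against 38.0% of features. By edgeR 1 chain was lower at an unadjusted p under 0.05, and DESeq2 called 1 chain lower, Col6a6, while limma-voom called 0. The median log2 fold change of the tested chains was 1.04, against 0.00 over all features tested. All 4 TAC libraries lay above all 4 sham libraries for 22 tested chains, against 21.4% of features. Col8a2 and Col12a1, both called higher, passed the filter through the TAC libraries alone. So did Col7a1, Col13a1 and Col28a1, which were not called. A difference was therefore partly built into these chains being tested. Col7a1, Col8a2 and Col12a1 are also among the 22 without overlap, and all these chains enter the median. Of the chains that passed through either group on its own, 20 were called higher and 5 were not called. The untested chains were Col2a1, Col9a1, Col9a2, Col9a3, Col10a1, Col11a1, Col19a1, Col24a1 and Col25a1, all under 2 CPM in every TAC and sham library.

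**Figure D2:**
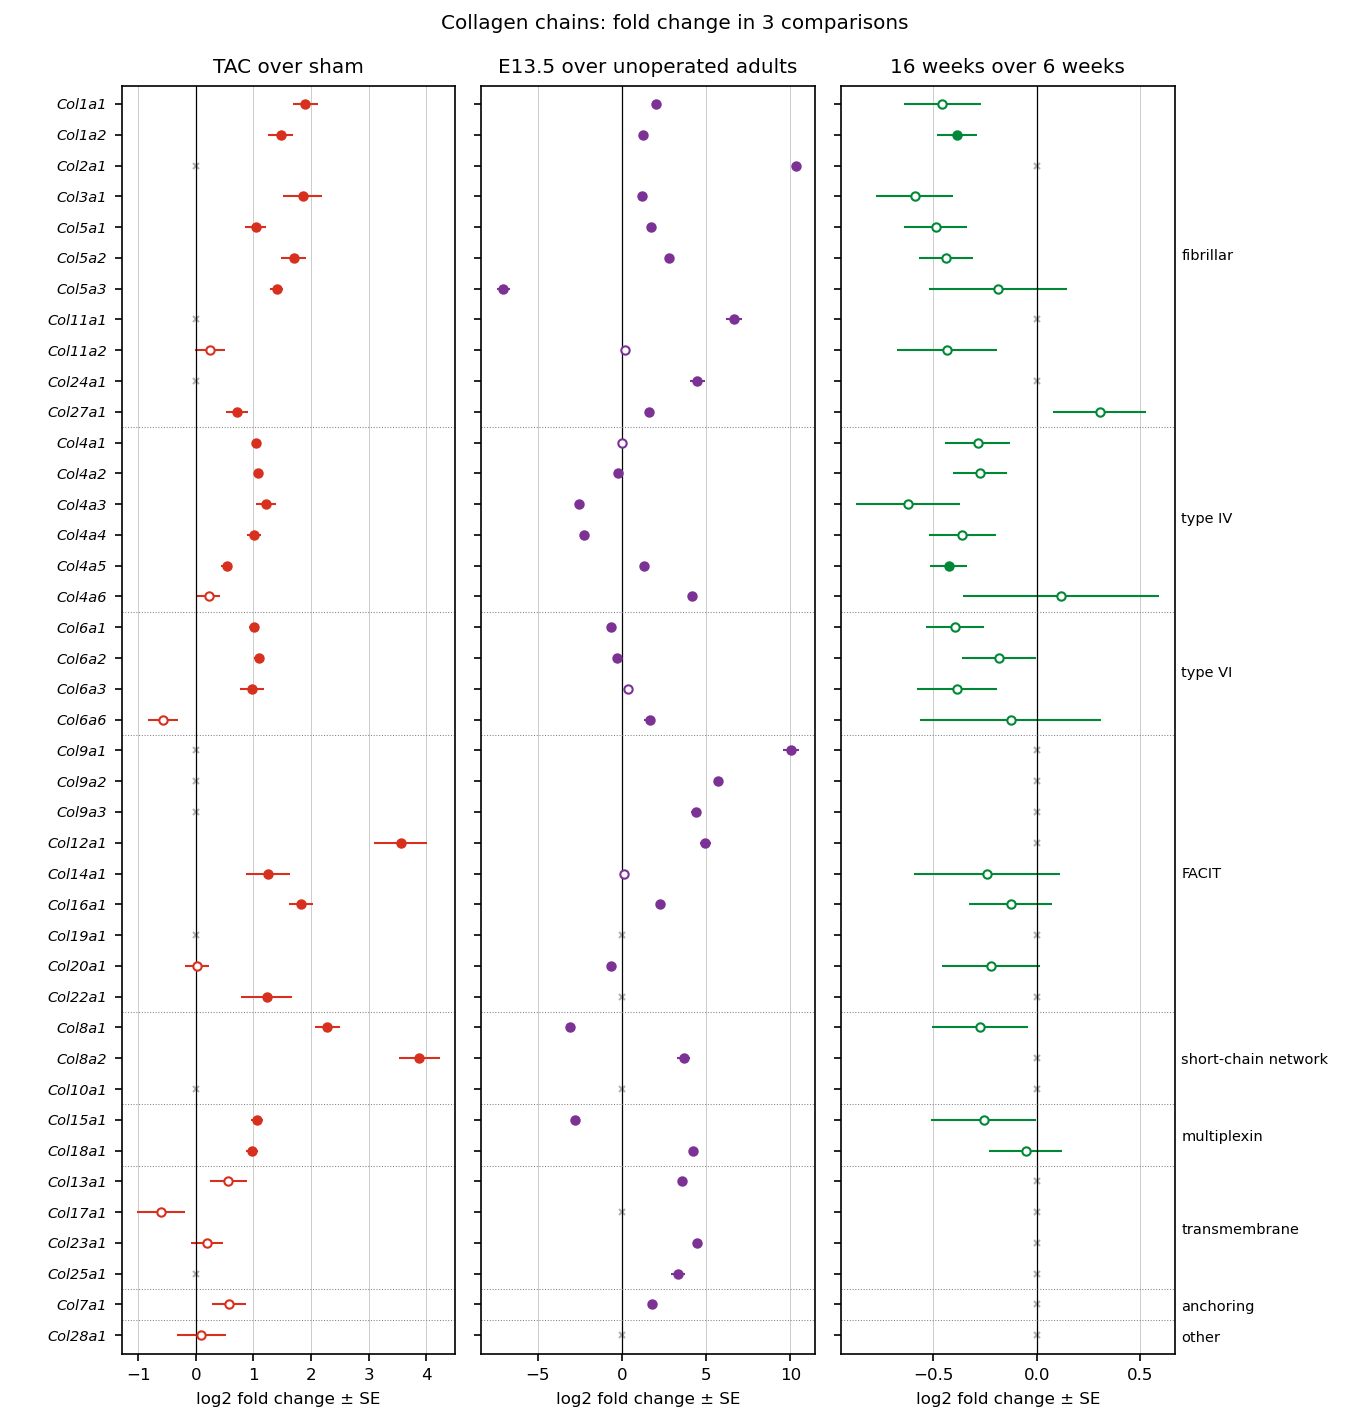
Log2 fold change (x axis) ± SE of every collagen chain in TAC over sham, E13.5 over unoperated adults and 16 weeks over 6 weeks, 1 panel each, with dotted lines between classes. Filled dots have an adjusted p under 0.05, open dots do not, grey crosses were not tested, and the axes differ between panels. In TAC 23 filled dots lie right of 0 and none left, at E13.5 23 lie right and 9 left, and between the adult ages 2 lie left.

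Of the fibrillar chains, 7 of 8 tested rose in TAC hearts. TAC values are given in the order of replicates 1, 2 and 3 and the heart labelled female, and sham values in the order of replicates 1 to 4. Col1a1 had 1004, 655, 1263 and 752 CPM in TAC hearts, against 249.9, 269, 216 and 219 CPM in sham hearts. The groups did not overlap, TAC replicate 3 was highest and TAC replicate 2 lowest, and the log2 fold change was 1.90 ± 0.22 (SE, adjusted p = 0.000616). Its partner Col1a2, the other chain of type I collagen, had 697, 463, 918 and 543 CPM in TAC hearts, against 236, 248, 205 and 229.9 CPM in sham hearts, a log2 fold change of 1.47 ± 0.22 (SE, adjusted p = 0.00189). Col3a1 had 1042, 837, 2101 and 1033 CPM in TAC hearts, against 335, 419, 268 and 323 CPM in sham hearts. For Col3a1, TAC replicate 3 stood far above the other 3 TAC hearts, which all still exceeded every sham heart, and the log2 fold change of 1.86 ± 0.34 (SE, adjusted p = 0.00633) was 1.49 without that library. Exons of Col1a1, Col1a2 and Col3a1 are partly overlapped by NONCODE features (78.7%, 79.0% and 63.8% of exonic bases are free), and reads there cannot be told apart without strand.

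Type V collagen, which starts fibrils and limits their width, also rose. Col5a1 had 302, 206, 377 and 258 CPM in TAC hearts, against 142, 144, 119 and 135 CPM in sham hearts, a log2 fold change of 1.04 ± 0.18 (SE, adjusted p = 0.00251). Col5a2 had 187, 127, 260.2 and 150.3 CPM in TAC hearts, against 55.5, 56.03, 53.3 and 52.4 CPM in sham hearts, a log2 fold change of 1.70 ± 0.23 (SE, adjusted p = 0.00116). In both, TAC replicates 1 and 3 were the higher TAC hearts and no TAC heart fell into the sham range. Col5a3, the third type V chain, had 129, 100.1, 137 and 120.3 CPM in TAC hearts, against 47.2, 45.8, 34.8 and 49.4 CPM in sham hearts. Its groups were well apart and its TAC libraries close together, with a log2 fold change of 1.41 ± 0.11 (SE, adjusted p = 1.72e-06). Col27a1, a fibrillar chain of cartilage, changed least among the called fibrillar chains, by 0.71 ± 0.19 (SE, adjusted p = 0.0103), and TAC replicate 2 at 16.1 CPM lay below sham replicate 2 at 16.6 CPM. Col11a2, a minor fibril chain of cartilage, had 4.01, 4.69, 3.003 and 3.13 CPM in TAC hearts, against 1.66, 3.21, 4.47 and 3.06 CPM in sham hearts, which overlapped, and was not called at 0.25 ± 0.26 (SE, adjusted p = 0.485).

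**Figure D3:**
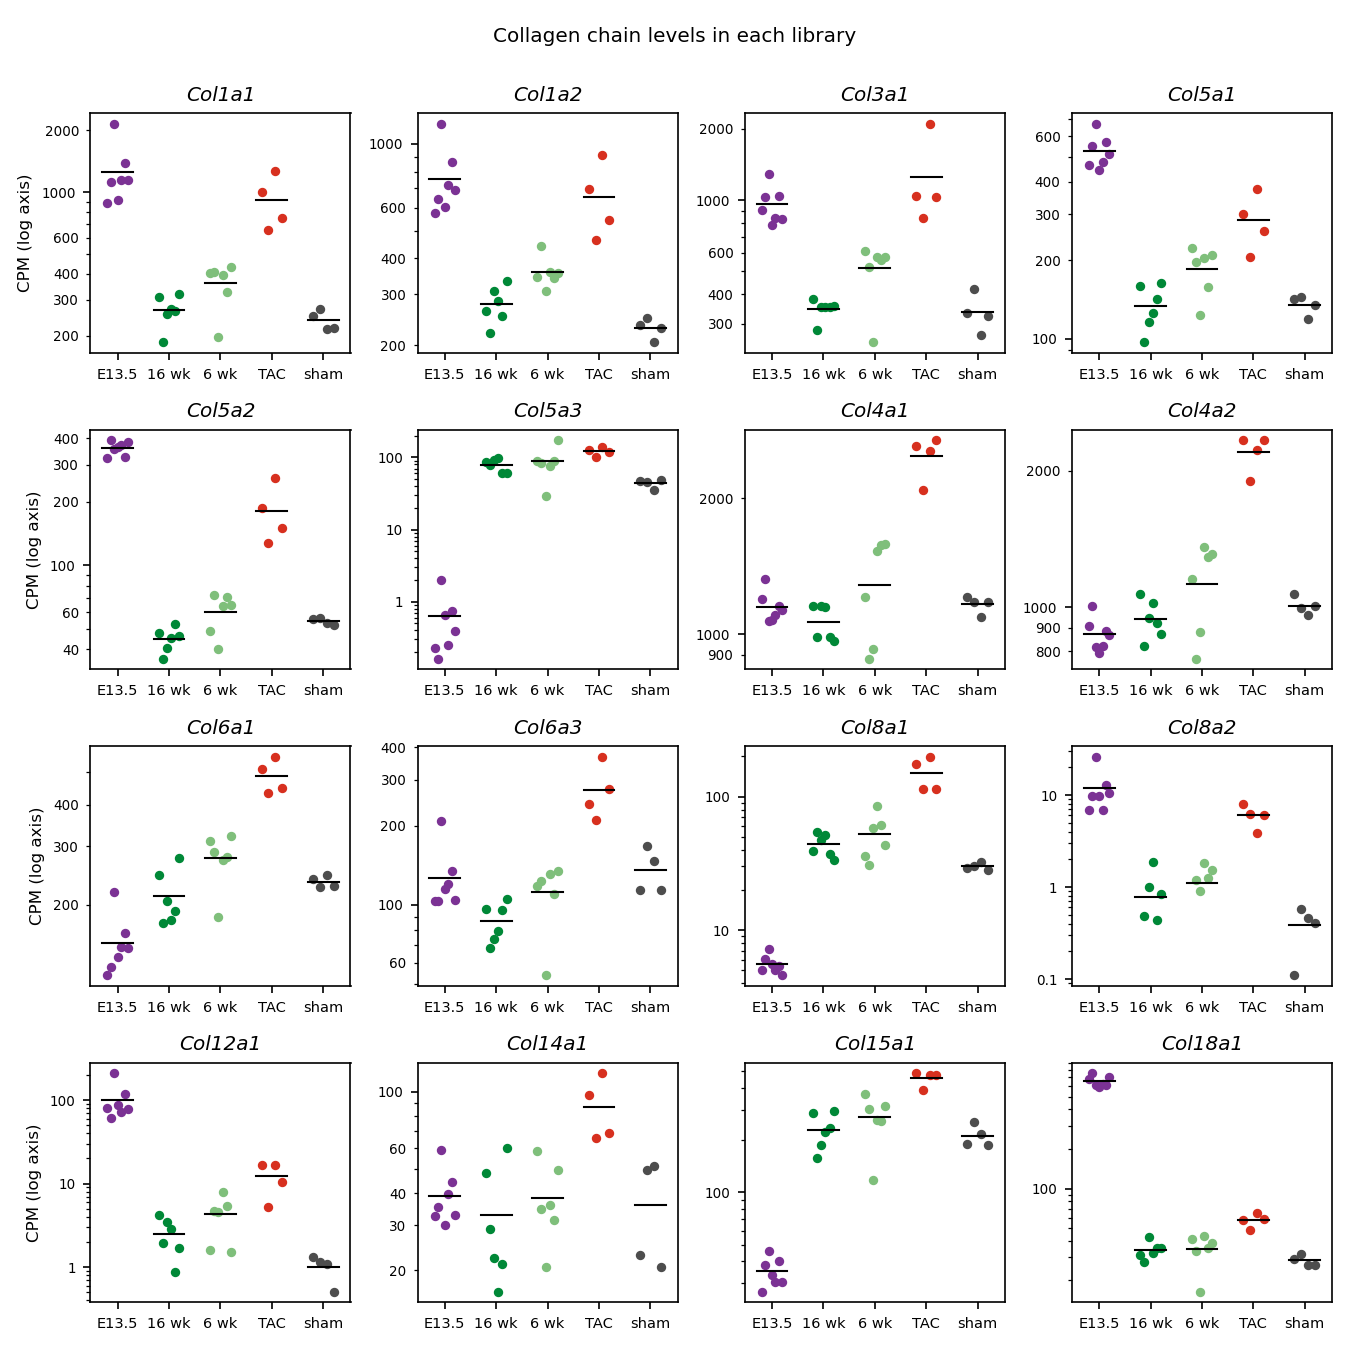
CPM (log y axis) of 16 collagen chains in each library of the E13.5, 16-week, 6-week, TAC and sham groups, with 1 point per library and a line at the group mean. For Col8a2, 1 library at 16 weeks and 1 at 6 weeks are at 0 and not drawn. Every chain shown has its 4 TAC points above its 4 sham points, while E13.5 points lie above the unoperated adult points for Col18a1 and Col12a1 and below them for Col5a3, Col8a1 and Col15a1.

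Of the 6 type IV chains, 5 rose in TAC hearts, by amounts that differed among the chains. Col4a1 had 2605, 2088, 2539 and 2684 CPM in TAC hearts, against 1209, 1176, 1091 and 1179 CPM in sham hearts. Col4a2, with which it forms the common heterotrimer, had 2332, 1897, 2222 and 2333 CPM in TAC hearts, against 1068, 994, 959 and 1008 CPM in sham hearts. Both pairs of groups were separated by a wide gap, with TAC replicate 2 lowest in each, and the log2 fold changes were 1.05 ± 0.08 (SE, adjusted p = 1.59e-07) for Col4a1 and 1.08 ± 0.07 (SE, adjusted p = 8.56e-08) for Col4a2. Col4a3 had 23.3, 14.9, 13.8 and 19.01 CPM in TAC hearts, against 5.75, 9.19, 7.24 and 7.45 CPM in sham hearts. Col4a4, its partner in the type IV network of the kidney filter, had 44.6, 31.3, 33.6 and 37.2 CPM in TAC hearts, against 18.6, 19.3, 13.9 and 18.7 CPM in sham hearts. Neither overlapped between the groups, and the log2 fold changes were 1.22 ± 0.18 (SE, adjusted p = 0.000117) and 1.01 ± 0.12 (SE, adjusted p = 1.7e-05). Col4a5, the X-linked chain that joins them, had 121, 108, 155 and 133 CPM in TAC hearts, against 87.03, 83.1, 84.8 and 91.01 CPM in sham hearts, with no overlap and the smallest called type IV change, 0.54 ± 0.09 (SE, adjusted p = 0.00047). Col4a6 overlapped at 3.94 to 6.01 CPM in TAC hearts and 3.16 to 4.47 CPM in sham hearts, and was not called at 0.23 ± 0.20 (SE, adjusted p = 0.391).

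Type VI chains, which form the filaments next to basement membranes, split between the 3 classic chains and Col6a6. Col6a1 had 511, 432, 556 and 449 CPM in TAC hearts, against 239.7, 225, 246 and 227 CPM in sham hearts. Col6a2 had 491, 388, 534 and 420.5 CPM in TAC hearts, against 206, 205, 228 and 194 CPM in sham hearts. Neither overlapped, and their log2 fold changes were 1.01 ± 0.08 (SE, adjusted p = 2.58e-07) and 1.10 ± 0.09 (SE, adjusted p = 1.45e-06). Col6a3, the longest of them, had 242, 210.3, 367 and 277 CPM in TAC hearts, against 114, 168, 147 and 114 CPM in sham hearts, again without overlap, and a log2 fold change of 0.97 ± 0.21 (SE, adjusted p = 0.0108). Col6a6, a relative of Col6a3, had 10.5, 9.70, 12.98 and 15.4 CPM in TAC hearts, against 22.4, 12.2, 11.7 and 22.9 CPM in sham hearts. Its groups overlapped and it was not called, at −0.57 ± 0.25 (SE, adjusted p = 0.105), yet it was called lower under several alternatives, among them without sham replicate 2 or 3. Once the libraries whose Y-linked counts contradicted their label were left out, both of those included, its log2 fold change was −1.21.

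Among the fibril-associated chains with interrupted helices, 4 of 5 tested rose. Col12a1, which binds the surface of type I fibrils, had 16.8, 5.22, 16.5 and 10.6 CPM in TAC hearts, against 1.33, 1.15, 1.08 and 0.510 CPM in sham hearts. TAC replicate 2 was the lowest TAC heart, all 4 lay far above the sham hearts, and the log2 fold change was 3.55 ± 0.47 (SE, adjusted p = 0.000414). Col14a1, a relative that also binds fibrils, had 96.8, 66.2, 118 and 68.7 CPM in TAC hearts, against 23.00, 49.6, 51.2 and 20.5 CPM in sham hearts. Its TAC and sham groups did not overlap, but the sham hearts fell into a low pair and a higher pair, of which the higher pair are replicates 2 and 3, whose Y-linked counts went against their label. The Col14a1 log2 fold change was 1.26 ± 0.39 (SE, adjusted p = 0.0454), and it missed the threshold in 6 of 8 fits that left out 1 library (sham replicate 1 or 4, or any TAC heart), with adjusted p up to 0.102. Col16a1, a fibril-associated chain of many tissues, had 57.5, 29.7, 55.9 and 41.2 CPM in TAC hearts, against 11.6, 12.9, 12.6 and 13.2 CPM in sham hearts, without overlap, and a log2 fold change of 1.83 ± 0.21 (SE, adjusted p = 0.000136). Col22a1, known from the junction of muscle and tendon, was low and overlapped, with 3.68, 1.28, 0.858 and 2.32 CPM in TAC hearts, against 0.553, 0.689, 1.39 and 0.816 CPM in sham hearts. Its call, at a log2 fold change of 1.23 ± 0.45 (SE, adjusted p = 0.0436), was lost in 5 of 8 fits without 1 library (TAC replicate 1 or the female-labelled heart, or sham replicate 1, 2 or 4), with adjusted p up to 0.178, and with DESeq2 and limma-voom. Col20a1 had a log2 fold change of 0.02 ± 0.21 (SE, adjusted p = 0.952) and overlapped. The calls of Col12a1 and Col16a1 were also lost without the libraries against their sex label, with log2 fold changes of 3.54 and 1.76 there, a fit of 2 TAC and 2 sham hearts.

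The short-chain type VIII, a network collagen of vessel walls, held the largest change. Col8a2 had 7.91, 6.18, 3.86 and 6.03 CPM in TAC hearts, against 0.111, 0.574, 0.462 and 0.408 CPM in sham hearts. The log2 fold change of Col8a2 was 3.88 ± 0.35 (SE, adjusted p = 1.22e-06), at a level that stayed low in CPM in both groups. Col8a1 had 176, 115, 199 and 114 CPM in TAC hearts, against 29.3, 30.2, 32.7 and 28.4 CPM in sham hearts. In TAC replicates 1 and 3 Col8a1 was higher than in the other TAC hearts, the sham hearts were tightly grouped, and the log2 fold change was 2.28 ± 0.21 (SE, adjusted p = 0.000151). Both multiplexins of the basement membrane zone rose without overlap. Col15a1 had 485, 388, 478 and 475 CPM in TAC hearts, against 191, 253, 218 and 187 CPM in sham hearts, a log2 fold change of 1.06 ± 0.10 (SE, adjusted p = 5.21e-06). Col18a1, the source of the fragment endostatin, had 57.9, 48.2, 64.99 and 58.9 CPM in TAC hearts, against 29.2, 31.7, 26.2 and 26.4 CPM in sham hearts, a log2 fold change of 0.97 ± 0.10 (SE, adjusted p = 3.18e-06).

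The transmembrane chains Col13a1, Col17a1 and Col23a1 were all under 2 CPM in TAC and sham hearts and none was called. Their log2 fold changes were 0.56 ± 0.33 (SE, adjusted p = 0.186) for Col13a1, −0.60 ± 0.42 (SE, adjusted p = 0.275) for Col17a1 and 0.19 ± 0.28 (SE, adjusted p = 0.616) for Col23a1. Without TAC replicate 3, which held the highest TAC value, Col17a1 was called lower at −1.21. Col7a1, the anchoring fibril chain of skin, had 1.89, 1.92, 2.04 and 2.67 CPM in TAC hearts, against 1.66, 1.84, 1.23 and 0.816 CPM in sham hearts. Its TAC hearts all lay above its sham hearts by a narrow margin, and it was not called, at 0.57 ± 0.29 (SE, adjusted p = 0.134). Col28a1, known from peripheral nerve, overlapped at 0.10 ± 0.42 (SE, adjusted p = 0.873). The fitted values of these chains rest on few counts.

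The summed levels of fibroblast, activated fibroblast and macrophage markers were higher in TAC hearts without overlap, and those of endothelial markers overlapped. Their calls are read against 19.6% of all features called higher and 18.4% called lower in TAC. Of 9 fibroblast markers, all tested, 4 were called higher and 1 lower, and they summed to 903 to 973 CPM in TAC hearts, against 669.6 to 782 CPM in sham hearts. Of 8 activated fibroblast markers, 7 were tested and 5 called higher, with a sum of 1132 to 1960.5 CPM in TAC hearts, against 650.4 to 725.5 CPM in sham hearts. The endothelial markers summed to 1738 to 2066 CPM in TAC hearts, against 1749.7 to 1835 CPM in sham hearts, with 1 higher and 1 lower call among 7 tested. Macrophage markers summed to 634 to 897 CPM in TAC hearts, against 458 to 518 CPM in sham hearts, with 3 of 8 called higher. No marker of these 4 lists was at 0 in a whole group. Cartilage, epicardial, bone and skin markers also summed higher in TAC hearts without overlap, at lower levels. Epicardial sums were 28.6 to 45.6 CPM in TAC hearts and 16.8 to 22.8 CPM in sham hearts. Cartilage sums were 33.7 to 62.3 CPM in TAC hearts and 7.58 to 9.95 CPM in sham hearts. Schwann and nerve markers summed lower without overlap. Smooth muscle and pericyte, cardiomyocyte, adipocyte, skeletal muscle and erythroid sums overlapped. The part of any of these cells in the collagen result was not tested.

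The machinery that makes and anchors collagen was taken from lists chosen with earlier results of these data known, and their calls too are read against 19.6% of all features called higher and 18.4% called lower. Of 18 tested folding and modifying genes, 9 rose in TAC hearts and 9 were not called. Leprel1, a prolyl 3-hydroxylase, averaged 11.7 ± 2.0 CPM in TAC hearts and 4.49 ± 0.91 CPM in sham hearts (SD, n = 4 each), a log2 fold change of 1.33 ± 0.18 (SE, adjusted p = 4.39e-05). Serpinh1, the collagen chaperone HSP47, averaged 656 ± 98 CPM in TAC hearts and 424 ± 75 CPM in sham hearts, a log2 fold change of 0.59 ± 0.14 (SE, adjusted p = 0.00799). Of 6 cross-linking enzymes, 5 rose and Lox itself was not called, at a log2 fold change of 1.97 ± 0.67 (SE, adjusted p = 0.0598). Lox averaged 12.1 ± 8.9 CPM in TAC hearts and 2.97 ± 1.64 CPM in sham hearts. Loxl1, a lysyl oxidase relative, averaged 179.6 ± 26.7 CPM in TAC hearts and 52.7 ± 8.8 CPM in sham hearts, a log2 fold change of 1.72 ± 0.13 (SE, adjusted p = 5.51e-06). Of 14 fibril partners, 9 rose and 1 fell. Fmod, which encodes the fibril-binding proteoglycan fibromodulin, averaged 28.6 ± 11.1 CPM in TAC hearts and 1.35 ± 0.63 CPM in sham hearts, a log2 fold change of 4.40 ± 0.45 (SE, adjusted p = 0.000248).

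The remaining lists held calls in both directions, beside 38.0% of all features called either way. Of 6 tested propeptide processing genes, 3 rose and 1 fell, with Adamts2, the procollagen N-proteinase, at a log2 fold change of 1.17 ± 0.13 (SE, adjusted p = 3.29e-05) and the enhancer Pcolce at 0.94 ± 0.11 (SE, adjusted p = 2.89e-05). Of 6 secretion genes, 2 rose and 1 fell, and of 8 collagen receptors, 3 rose and 2 fell. Mrc2, a collagen uptake receptor, changed by 1.09 ± 0.11 (SE, adjusted p = 5.9e-06), while the receptor kinase Ddr2 fell by 0.47 ± 0.09 on the log2 scale (SE, adjusted p = 0.000978). Of 11 breakdown genes, 5 rose and 1 fell. Both the inhibitor Timp1, at 3.08 ± 0.56 (SE, adjusted p = 0.00597), and the membrane protease Mmp14, at 1.31 ± 0.09 (SE, adjusted p = 1.02e-07), were among those that rose. Of 15 transforming growth factor beta inputs, 7 rose and 2 fell, with Tgfb2 at 1.14 ± 0.12 (SE, adjusted p = 5.51e-06).

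The second comparison set the embryonic heart against the unoperated adult heart, as E13.5 minus the mean of both adult ages. Of the 41 chains 36 were tested, 23 were called higher, against a background of 44.1% of 12766 features, and 9 were called lower, against 39.7%. Only 4 chains were not called, in a comparison where 83.8% of all features were called, so a call by itself sets no collagen apart. The median log2 fold change of the tested chains was 1.69, against 0.07 over all features. All 7 E13.5 libraries lay above all 12 adult libraries for 22 tested chains, against 28.1% of features, and below them for 5, against 26.4%. Of the higher calls, 12 were for chains that passed the filter through E13.5 libraries alone, and 3 of the lower calls, Col4a3, Col4a4 and Col5a3, for chains that passed through adult libraries alone. The 12 were Col2a1, Col7a1, Col8a2, Col9a1, Col9a2, Col9a3, Col11a1, Col12a1, Col13a1, Col23a1, Col24a1 and Col25a1. These 12 and 3 chains are also among the 22 and 5 without overlap and enter the median. Part of those values was therefore built into the chains being tested. Among chains that passed through either, 11 were called higher, 6 lower and 4 not. Col10a1, Col17a1, Col19a1, Col22a1 and Col28a1 were not tested. Fold changes are relative to the scaling used, and other scalings moved the median of all features to 0.11 and 0.19.

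The type II and IX chains and Col11a1, collagens of cartilage, were almost wholly embryonic here. Col2a1 had 130.1 to 216 CPM (median 159.6) in E13.5 hearts, and was at 0 in most unoperated adult hearts, with none above 0.483 CPM. It rested on 15554 counts at E13.5 and 3 counts over all 12 adults, a ratio of 1441 per unit depth with a 95% Poisson interval of 493 to 6989.9, which covers counting error only. Col9a1 had 15.4 to 28.5 CPM (median 19.8) in E13.5 hearts and 0 counts in every unoperated adult heart. From 1959 counts, and with a floor of 3 counts for the 12 adults together, it was at least 182-fold higher at E13.5. Col9a2 had 21.8 to 37.6 CPM (median 29.99) in E13.5 hearts, against 0 to 1.39 CPM (median 0.477) in unoperated adult hearts, a log2 fold change of 5.73 ± 0.23 (SE, adjusted p = 4.87e-20). Col9a3 had 10.4 to 26.3 CPM (median 13.3) in E13.5 hearts, against 0 to 1.58 CPM (median 0.484) in unoperated adult hearts, a log2 fold change of 4.39 ± 0.31 (SE, adjusted p = 3.1e-13), and E13.5 replicate 4 stood above the other embryos. Col11a1 had 15.6 to 38.9 CPM (median 18.5) in E13.5 hearts, against 0 to 1.98 CPM (median 0) in unoperated adult hearts. No E13.5 heart overlapped the adults for any of these chains, and the log2 fold change of Col11a1 was 6.68 ± 0.48 (SE, adjusted p = 5.25e-11). All of these chains passed the filter through the E13.5 libraries alone, so their calls and lack of overlap were partly built into their being tested. Col11a2 had 3.64 to 9.73 CPM (median 6.18) in E13.5 hearts, against 3.38 to 8.23 CPM (median 5.67) in unoperated adult hearts, which overlapped, and it was not called at 0.16 ± 0.19 (SE, adjusted p = 0.447). Set against sham hearts instead of the unoperated adults, Col11a2 was called higher at 0.95.

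The summed level of cartilage markers was higher at E13.5 too. Of 7 cartilage markers in the files 4 were tested, of which 3 were called higher and Comp lower, and they summed to 86.7 to 109.5 CPM at E13.5, against 14.6 to 19.9 CPM at 16 weeks and 8.73 to 37.6 CPM at 6 weeks. Hapln1, Matn1 and Matn3 were at 0 in every unoperated adult heart, but not all of them reached the count filter in the E13.5 libraries either. Sox9, the transcription factor of cartilage and valve progenitors, averaged 60.6 ± 6.7 CPM in E13.5 hearts (SD, n = 7) and 10.7 ± 3.2 CPM in unoperated adult hearts (SD, n = 12). Acan, the cartilage proteoglycan, averaged 10.1 ± 1.6 CPM in E13.5 hearts and 0.496 ± 0.822 CPM in unoperated adult hearts. Epicardial markers were called higher for 7 of 7, at 261 to 338 CPM in E13.5 hearts, against 14.4 to 26.0 CPM at 16 weeks and 11.6 to 23.8 CPM at 6 weeks. Between the adult ages only 2 of these 7 passed the count filter, so their higher calls were partly built into their being tested. The 7 cardiomyocyte and 8 macrophage markers were all called lower, and 2 of 9 fibroblast markers higher and 6 lower, in a comparison with 83.8% of all features called. Of 8 activated fibroblast markers, 5 were called higher and 3 lower. Their sum was 4247 to 5400 CPM at E13.5, against 325 to 508 CPM at 16 weeks and 420 to 1207 CPM at 6 weeks. The part of these cells in the collagen result was not tested.

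The main interstitial fibrillar chains were higher in the embryo too. Col1a1 had 886 to 2149 CPM (median 1146) in E13.5 hearts, against 186 to 432 CPM (median 313) in unoperated adult hearts. Replicate 3 was the highest E13.5 heart, the others lay at 886 to 1389 CPM, and no adult reached them, at a log2 fold change of 2.01 ± 0.18 (SE, adjusted p = 7.16e-09). Col1a2 had 576 to 1173 CPM (median 692) in E13.5 hearts, against 221 to 442 CPM (median 322) in unoperated adult hearts, a log2 fold change of 1.26 ± 0.12 (SE, adjusted p = 7.87e-09). Col3a1 had 788 to 1291 CPM (median 907) in E13.5 hearts, against 251 to 611 CPM (median 369) in unoperated adult hearts, a log2 fold change of 1.19 ± 0.14 (SE, adjusted p = 1.4e-07). Neither chain overlapped between the stages. Col5a1 had 443 to 668 CPM (median 511) in E13.5 hearts, against 97.02 to 222 CPM (median 158) in unoperated adult hearts, a log2 fold change of 1.74 ± 0.11 (SE, adjusted p = 2.31e-12). Col5a2, its usual partner, had 322 to 390.3 CPM (median 365) in E13.5 hearts, against 36.2 to 72.1 CPM (median 48.3) in unoperated adult hearts, and changed most of these 5, by 2.79 ± 0.08 (SE, adjusted p = 4.04e-23). Col24a1, a fibrillar chain of developing bone, and Col27a1 were called higher at 4.46 ± 0.44 (SE, adjusted p = 1.41e-10) and 1.57 ± 0.15 (SE, adjusted p = 4.68e-10).

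Col5a3 ran opposite to the other type V chains. It had 0.163 to 1.97 CPM (median 0.390) in E13.5 hearts, against 29.3 to 172 CPM (median 84.6) in unoperated adult hearts. In each adult heart Col5a3 was above every embryo by a wide margin, and the log2 fold change of −7.05 ± 0.41 (SE, adjusted p = 2.15e-11) was the most negative of the collagen chains. The E13.5 values of Col5a3 were all under 2 CPM, from libraries of 7543375 counts or more.

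Of the 6 type IV chains 2 were called higher and 3 lower at E13.5. Col4a1 had 1068 to 1326 CPM (median 1133) in E13.5 hearts, against 883 to 1585 CPM (median 1151) in unoperated adult hearts. Col4a2 had 791 to 1005 CPM (median 869) in E13.5 hearts, against 770.5 to 1358 CPM (median 985) in unoperated adult hearts. Both overlapped, and Col4a1 was not called at −0.02 ± 0.10 (SE, adjusted p = 0.839), whereas Col4a2 was called lower at −0.24 ± 0.09 (SE, adjusted p = 0.0154), a call that upper-quartile scaling, no filter and leaving out libraries against their sex label removed. Without the low-count filter Col4a1 was called higher at 0.16. Col4a3 and Col4a4 were both lower in the embryo without overlap. Col4a3 had 0.758 to 1.46 CPM (median 1.09) in E13.5 hearts, against 2.65 to 10.7 CPM (median 7.13) in unoperated adult hearts, a log2 fold change of −2.57 ± 0.20 (SE, adjusted p = 5.89e-13). Col4a4 had 2.42 to 4.72 CPM (median 3.65) in E13.5 hearts, against 11.03 to 23.6 CPM (median 17.3) in unoperated adult hearts, a log2 fold change of −2.24 ± 0.15 (SE, adjusted p = 1.44e-14). Col4a5 and Col4a6, which share the network of smooth muscle basement membranes, were higher in the embryo without overlap. Col4a5 had 179.9 to 248 CPM (median 222) in E13.5 hearts, against 66.6 to 115 CPM (median 92.2) in unoperated adult hearts, a log2 fold change of 1.28 ± 0.07 (SE, adjusted p = 3.61e-17). Col4a6 had 79.9 to 113 CPM (median 94.6) in E13.5 hearts, against 0.883 to 11.9 CPM (median 5.52) in unoperated adult hearts, a log2 fold change of 4.18 ± 0.20 (SE, adjusted p = 3.98e-14).

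All 4 type VI chains overlapped between the stages, and Col6a6 had the largest difference of them. Col6a1 had 123 to 219 CPM (median 148) in E13.5 hearts, against 176 to 323 CPM (median 259) in unoperated adult hearts, and was called lower at −0.66 ± 0.13 (SE, adjusted p = 8.22e-05). Col6a2 had 154 to 255 CPM (median 186) in E13.5 hearts, against 145 to 319 CPM (median 238) in unoperated adult hearts, and its lower call at −0.31 ± 0.14 (SE, adjusted p = 0.0443) was lost in 13 of 19 fits without 1 library, with adjusted p up to 0.112, and under 8 other settings, RLE and upper-quartile scaling and DESeq2 among them. Col6a3 had 104 to 208 CPM (median 115) in E13.5 hearts, against 53.97 to 135 CPM (median 101) in unoperated adult hearts. It was not called at 0.37 ± 0.17 (SE, adjusted p = 0.0501), but 7 of 19 fits without 1 library called it higher (without E13.5 replicate 1, 2 or 7, 6-week replicate 3, 4 or 6, or 16-week replicate 6). Of 11 other settings 7 called it higher, RLE and upper-quartile scaling and DESeq2 among them. Set against sham hearts, the Col6a3 difference was −0.18 and not called. Col6a6 had 15.9 to 53.6 CPM (median 20.5) in E13.5 hearts, against 2.03 to 20.99 CPM (median 7.15) in unoperated adult hearts, and was called higher at 1.64 ± 0.33 (SE, adjusted p = 0.000215). Set against sham hearts instead of the unoperated adults, the Col6a6 difference was 0.51 and the call was lost.

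Fibril-associated chains other than type IX were split. Col12a1 had 61.5 to 209 CPM (median 79.8) in E13.5 hearts, against 0.883 to 7.84 CPM (median 3.15) in unoperated adult hearts. Every embryo was above every adult, replicate 3 was the highest embryo, and the log2 fold change was 4.96 ± 0.34 (SE, adjusted p = 1.88e-10). Col16a1 had 63.03 to 85.7 CPM (median 71.1) in E13.5 hearts, against 8.23 to 22.3 CPM (median 15.6) in unoperated adult hearts, also without overlap, and a log2 fold change of 2.28 ± 0.11 (SE, adjusted p = 9.95e-18). Col14a1 had 30.1 to 59.02 CPM (median 35.3) in E13.5 hearts, against 16.5 to 60.03 CPM (median 33.2) in unoperated adult hearts. Its groups overlapped almost fully, and it was not called at 0.14 ± 0.23 (SE, adjusted p = 0.579). Without the libraries against their sex label it was called higher at 0.57. Col20a1 was called lower at −0.65 ± 0.18 (SE, adjusted p = 0.00139), and set against sham hearts its difference was −0.19 and not called.

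The short-chain and multiplexin classes each had 1 chain called higher and 1 called lower at E13.5. Col8a2 had 6.81 to 25.99 CPM (median 9.83) in E13.5 hearts, against 0 to 1.89 CPM (median 0.954) in unoperated adult hearts, a log2 fold change of 3.66 ± 0.40 (SE, adjusted p = 3.83e-08). Col8a1 had 4.61 to 7.27 CPM (median 5.38) in E13.5 hearts, against 30.9 to 85.8 CPM (median 45.6) in unoperated adult hearts, a log2 fold change of −3.10 ± 0.18 (SE, adjusted p = 1.92e-13). The type VIII chains thus moved in opposite directions, each without overlap. Col18a1 had 587 to 751 CPM (median 619) in E13.5 hearts, against 16.5 to 43.4 CPM (median 35.2) in unoperated adult hearts. Each embryo was far above each adult heart, at a log2 fold change of 4.24 ± 0.10 (SE, adjusted p = 3.14e-22). Col15a1, the other multiplexin, had 26.8 to 46.1 CPM (median 33.6) in E13.5 hearts, against 118 to 368 CPM (median 261) in unoperated adult hearts. Every embryo was below every adult, at −2.83 ± 0.20 (SE, adjusted p = 4.2e-10).

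Of the transmembrane chains 3 were tested, and all 3 passed the filter through the E13.5 libraries alone, so their higher calls were partly built into their being tested. Col23a1 had 29.1 to 42.2 CPM (median 36.5) in E13.5 hearts, against 0.461 to 3.81 CPM (median 1.64) in unoperated adult hearts, a log2 fold change of 4.45 ± 0.16 (SE, adjusted p = 2.3e-21). Only 44.1% of its exonic bases are free of other features. Col13a1, which sits at the neuromuscular junction in skeletal muscle, had 34.8 to 61.5 CPM (median 44.2) in E13.5 hearts, against 2.31 to 6.46 CPM (median 3.73) in unoperated adult hearts, a log2 fold change of 3.57 ± 0.14 (SE, adjusted p = 3.59e-20). Col25a1, known from nerve and muscle development, had 3.83 to 10.9 CPM (median 6.11) in E13.5 hearts, against 0 to 2.08 CPM (median 0.423) in unoperated adult hearts, a log2 fold change of 3.32 ± 0.40 (SE, adjusted p = 3.86e-08). No embryo overlapped the adults for any of the 3, and the same held for Col7a1, at 1.78 ± 0.24 (SE, adjusted p = 5.14e-08).

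Of the partner lists at E13.5, folding and modification had 13 higher and 4 lower calls among 19 tested genes, with P4ha3, a prolyl 4-hydroxylase subunit, at 25.8 ± 5.7 CPM in E13.5 hearts (SD, n = 7) and 0.331 ± 0.329 CPM in unoperated adult hearts (SD, n = 12). Cross-linking had 4 higher calls among 5, with Lox itself at a log2 fold change of 3.84 ± 0.31 (SE, adjusted p = 8.54e-10). Fibril partners had 6 higher and 8 lower among 14. Fn1, fibronectin, was higher at 4.64 ± 0.08 (SE, adjusted p = 2.62e-29), while Prelp, a leucine-rich proteoglycan, fell by 4.50 ± 0.12 on the log2 scale (SE, adjusted p = 4.11e-21). Propeptide processing had 1 higher and 2 lower among 5, with Pcolce2 lower by 5.84 on the log2 scale, while secretion had 4 higher and 2 lower among 6. Receptors had 6 higher and 2 lower among 8, breakdown 6 and 4 among 10, and transforming growth factor beta inputs 9 and 4 among 15. These lists, like the chains, are read against 83.8% of features called.

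The third comparison set the unoperated adult ages against each other, 16 weeks against 6 weeks. Of the 41 chains 24 were tested, 0 were called higher, against 1.32% of 10394 features, and 2 were called lower, against 1.19%, or 2 in either direction, against 2.51%. By edgeR 0 chains were higher at an unadjusted p under 0.05, DESeq2 called 0 higher and 4 lower, and limma-voom 0 and 2. The median log2 fold change of the tested chains was −0.28, against −0.01 over all features, and 22 of the 24 values were negative. Col4a5 had 66.6 to 90.7 CPM (median 78.6) at 16 weeks, against 93.7 to 115 CPM (median 106) at 6 weeks. It was the only chain whose 16-week hearts all lay below all 6-week hearts, against 0.702% of features, and its log2 fold change was −0.42 ± 0.09 (SE, adjusted p = 0.0121). Col1a2 had 221 to 335 CPM (median 273) at 16 weeks, against 308 to 442 CPM (median 350.0) at 6 weeks, which overlapped at the edge, and a log2 fold change of −0.39 ± 0.10 (SE, adjusted p = 0.0333). Leaving out 1 of 6 libraries (6-week replicate 2 or 4, or 16-week replicate 1, 2, 4 or 5) removed the Col1a2 call, with adjusted p up to 0.0748. Without 6-week replicate 3, whose collagen share was lowest of its group, 8 chains were called lower, beside 119 of 10533 features. The further ones were Col1a1, Col3a1, Col5a1, Col5a2, Col6a1 and Col6a3. Leaving out a library with low collagen widens this difference by construction, so those calls are no added support for it.

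The other main chains were not called between the ages. Col1a1 had 186 to 318 CPM (median 267) at 16 weeks, against 198 to 432 CPM (median 400.2) at 6 weeks, and Col3a1 had 283 to 383 CPM (median 353) at 16 weeks, against 251 to 611 CPM (median 566) at 6 weeks. In both, 5 of the 6-week hearts lay above every 16-week heart and replicate 3 lay low, with log2 fold changes of −0.46 ± 0.19 (SE, adjusted p = 0.248) and −0.59 ± 0.19 (SE, adjusted p = 0.131). Col5a1 had 97.02 to 163 CPM (median 134) at 16 weeks, against 123 to 222 CPM (median 200.3) at 6 weeks, and Col5a2 had 36.2 to 52.5 CPM (median 45.9) at 16 weeks, against 40.3 to 72.1 CPM (median 64.5) at 6 weeks. Col4a1 had 964 to 1156 CPM (median 1068) at 16 weeks, against 883 to 1585 CPM (median 1369.5) at 6 weeks, and Col4a2 had 822 to 1069 CPM (median 934) at 16 weeks, against 770.5 to 1358 CPM (median 1221) at 6 weeks. The basement membrane pair was spread more widely at 6 weeks than at 16 weeks, with log2 fold changes of −0.29 ± 0.16 (SE, adjusted p = 0.391) and −0.28 ± 0.13 (SE, adjusted p = 0.305). Col6a1 had 176 to 277 CPM (median 198) at 16 weeks, against 184 to 323 CPM (median 283) at 6 weeks, Col6a2 had 170.4 to 275 CPM (median 205) at 16 weeks, against 145 to 319 CPM (median 248) at 6 weeks, and Col6a3 had 68.5 to 105 CPM (median 87.5) at 16 weeks, against 53.97 to 135 CPM (median 120.3) at 6 weeks. Col8a1 had 33.4 to 54.1 CPM (median 43.4) at 16 weeks, against 30.9 to 85.8 CPM (median 51.1) at 6 weeks, and Col15a1 had 157 to 293 CPM (median 229) at 16 weeks, against 118 to 368 CPM (median 283) at 6 weeks. Col18a1 had 27.5 to 42.7 CPM (median 33.6) at 16 weeks, against 16.5 to 43.4 CPM (median 36.9) at 6 weeks, and its log2 fold change of −0.05 ± 0.18 (SE, adjusted p = 0.919) was the closest to 0 of the 24 tested chains. Col16a1 was not called at −0.13 ± 0.20 (SE, adjusted p = 0.806). Col14a1 had 16.5 to 60.03 CPM (median 25.7) at 16 weeks, against 20.6 to 58.7 CPM (median 35.4) at 6 weeks, with hearts spread over a similar span at both ages. Col12a1 had 0.883 to 4.18 CPM (median 2.38) at 16 weeks, against 1.52 to 7.84 CPM (median 4.66) at 6 weeks and fell short of the count filter, as did 16 others.

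Activated fibroblast markers summed to 325 to 508 CPM at 16 weeks, against 420.3 to 1207 CPM at 6 weeks. Fibroblast markers summed to 804 to 895 CPM at 16 weeks, against 805.5 to 1454.5 CPM at 6 weeks, with 2 of 9 called lower. Their part was not tested. Of the partner lists, cross-linking had 1 lower call among 4 tested genes and fibril partners 2 among 13, beside 1.19% of all features.

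Ratios of chains within a library do not depend on depth or on scaling between libraries. For 8 such ratios of CPM per kb, libraries were compared by an exact two-sided permutation test, with Benjamini-Hochberg adjustment over the 8. At E13.5 all 8 passed at an adjusted p of 0.00669 or less. Col1a1 to Col1a2 was 3.04 (2.81 to 3.40) in E13.5 hearts, against 1.80 (1.19 to 2.26) in unoperated adult hearts, as geometric mean and range, with an exact p of 1.98e-05, the smallest the design allows, and an adjusted p of 3.18e-05. Col3a1 to Col1a1 was 0.764 (0.580 to 0.989) in E13.5 hearts, against 1.32 (1.08 to 1.65) in unoperated adult hearts, at the same adjusted p. The embryo thus carried more Col1a1 relative to both partners, and neither ratio overlapped. Col5a2 to Col5a1 was 0.638 (0.494 to 0.766) in E13.5 hearts, against 0.308 (0.204 to 0.417) in unoperated adult hearts. Col4a5 to Col4a1 was 0.190 (0.168 to 0.218) in E13.5 hearts, against 0.0782 (0.0611 to 0.124) in unoperated adult hearts. Col6a3 to Col6a1 was 0.300 (0.257 to 0.349) in E13.5 hearts, against 0.147 (0.108 to 0.183) in unoperated adult hearts. These 3 did not overlap either. Col4a1 to Col4a2, 1.298 in E13.5 hearts and 1.11 in unoperated adult hearts, and Col6a2 to Col6a1, 0.971 and 0.751, did not overlap, while Col5a1 to Col1a1, 0.271 and 0.318, did.

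**Figure D4:**
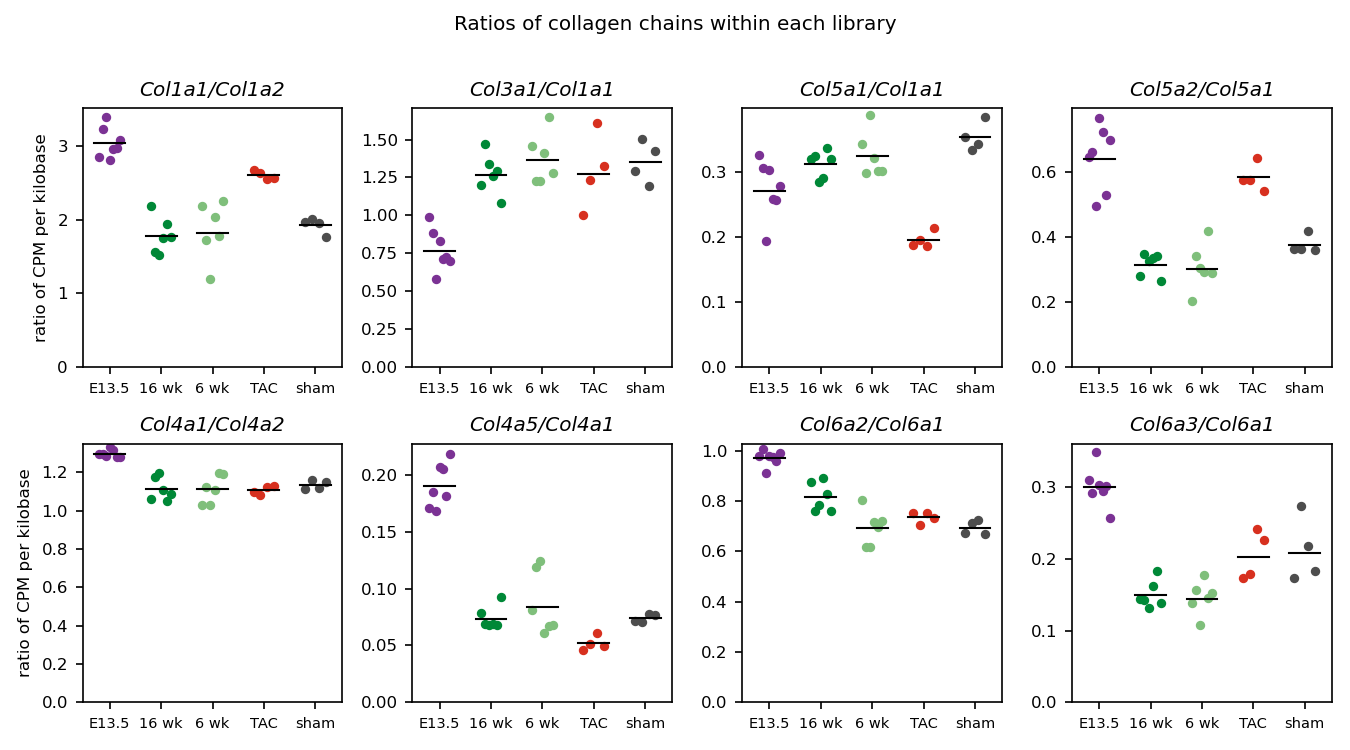
Ratio of CPM per kb (y axis, from 0) for 8 chain pairs in each library of the E13.5, 16-week, 6-week, TAC and sham groups, with a line at the geometric mean. Col1a1 to Col1a2 is 2.55 to 2.67 in TAC hearts and 1.77 to 2.02 in sham hearts, and 2.81 to 3.40 at E13.5.

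In TAC hearts 4 of the 8 ratios did not overlap with sham hearts, each at an exact p of 0.0286, the smallest that 4 against 4 allows, and an adjusted p of 0.0571, so none passed after adjustment. Col1a1 to Col1a2 was 2.61 (2.55 to 2.67) in TAC hearts, against 1.93 (1.77 to 2.02) in sham hearts. Col5a1 to Col1a1 was 0.196 (0.186 to 0.214) in TAC hearts, against 0.353 (0.334 to 0.385) in sham hearts. Col5a2 to Col5a1 was 0.583 (0.542 to 0.642) in TAC hearts, against 0.376 (0.361 to 0.417) in sham hearts. In every TAC heart the balance lay further towards Col1a1 against both Col1a2 and Col5a1, and further towards Col5a2 against Col5a1, than in any sham heart. Col4a5 to Col4a1 was 0.0519 (0.0463 to 0.0612) in TAC hearts, against 0.0742 (0.0706 to 0.0776) in sham hearts. Col3a1 to Col1a1 was 1.27 (1.003 to 1.61) in TAC hearts and 1.35 (1.196 to 1.505) in sham hearts, with an exact p of 0.657 by permutation. Col4a1 to Col4a2 was 1.11 (1.08 to 1.13) in TAC hearts and 1.14 (1.11 to 1.16) in sham hearts, with an exact p of 0.171. Col6a2 to Col6a1 was 0.734 in TAC hearts and 0.693 in sham hearts, and Col6a3 to Col6a1 was 0.203 and 0.209, with exact p of 0.0857 and 0.857. Between the adult ages none passed, and the closest was Col6a2 to Col6a1, at 0.815 (0.759 to 0.891) at 16 weeks, against 0.693 (0.617 to 0.805) at 6 weeks, with an exact p of 0.0108 and an adjusted p of 0.0866. Without 6-week replicate 1 that ratio passed.

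The TAC and E13.5 comparisons share no library, so the calls of each chain can be set side by side. Of all features tested, 19.6% were called higher and 18.4% lower in TAC, and 44.1% higher and 39.7% lower at E13.5. The share of all features with each pair of calls was not counted. Higher in both were 11 chains, Col1a1, Col1a2, Col3a1, Col5a1, Col5a2, Col27a1, Col4a5, Col8a2, Col12a1, Col16a1 and Col18a1. Higher in TAC and lower at E13.5 were 8 chains, Col5a3, Col4a2, Col4a3, Col4a4, Col6a1, Col6a2, Col8a1 and Col15a1. The E13.5 calls of Col4a2 and Col6a2 were each lost under several other settings. Col4a1, Col6a3 and Col14a1 were higher in TAC and not called at E13.5. Higher at E13.5 and not called in TAC were 5 chains, Col4a6, Col6a6, Col7a1, Col13a1 and Col23a1. Another 7, Col2a1, Col9a1, Col9a2, Col9a3, Col11a1, Col24a1 and Col25a1, were higher at E13.5 and too low to be tested in TAC and sham hearts. Col20a1 was lower at E13.5 only, Col22a1 was higher in TAC and untested at E13.5, Col11a2 was called in neither, Col17a1 and Col28a1 were not called in TAC and untested at E13.5, and Col10a1 and Col19a1 were tested in neither. The widest contrast was Col5a3, with log2 fold changes of 1.41 in TAC and −7.05 at E13.5, and Col8a1, with 2.28 and −3.10. Whether a chain's TAC and E13.5 changes differ was not tested.

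**Figure D5:**
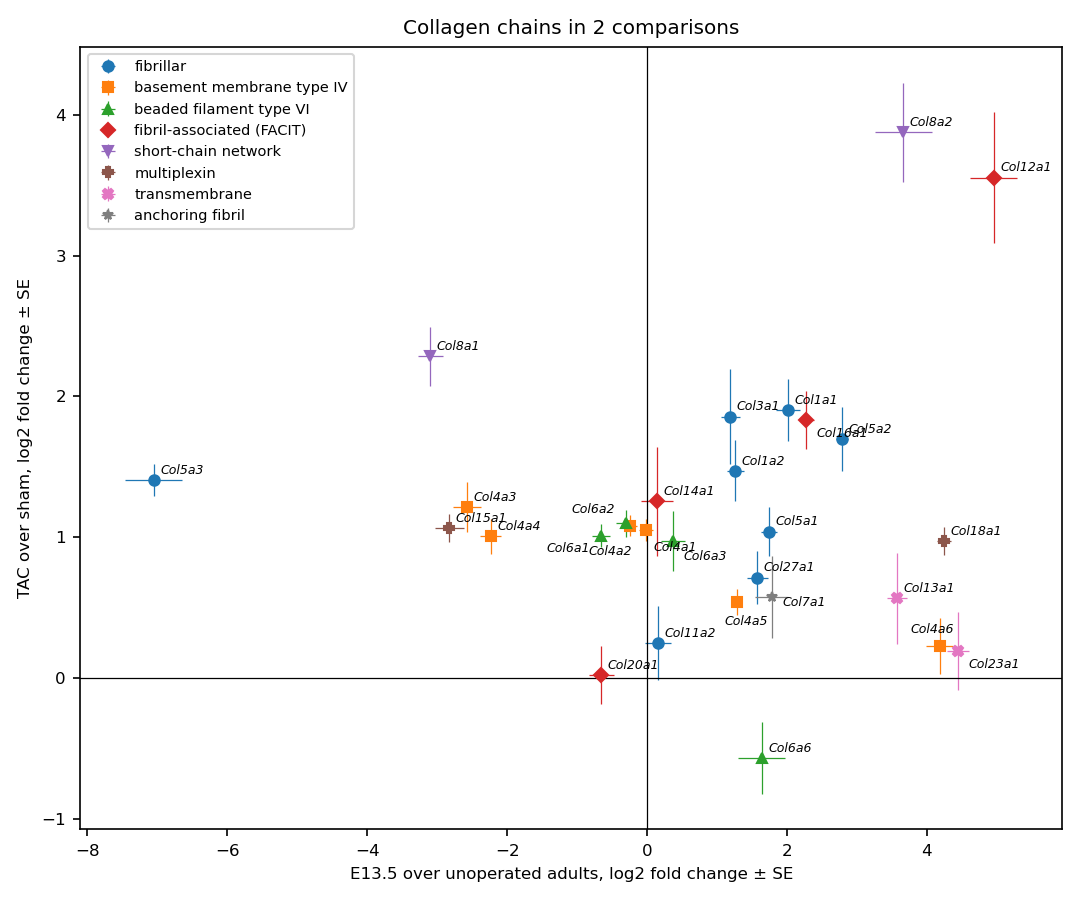
Log2 fold change ± SE in TAC over sham (y axis) against E13.5 over unoperated adults (x axis) for the collagen chains tested in both, coloured by class. Col12a1 and Col8a2 lie at the upper right, Col5a3 and Col8a1 at the upper left, and Col6a6 is the only chain below 0 on the y axis.

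Some chains are neighbours in the genome, and the type IV pairs are known to start from shared promoter regions. In the deposited mm9 annotation 6 pairs lie within 100000 bases of each other. Col4a1 (chr8:11198423-11312826) and Col4a2 (chr8:11312805-11449287) lie on opposite strands and overlap by 22 bases. Col4a4 and Col4a3 on chromosome 1 are 71 bases apart, and Col4a6 and Col4a5 on chromosome X 1308 bases apart, each on opposite strands. Col4a1 and Col4a2 rose in TAC by 1.05 and 1.08 on the log2 scale, and Col4a3 and Col4a4 by 1.22 and 1.01. At E13.5 Col4a3 and Col4a4 were both called lower, while Col4a2 was called lower and Col4a1 was not called. Col4a5 and Col4a6 were both higher at E13.5, by 1.28 and 4.18, and in TAC Col4a5 rose by 0.54 while Col4a6 was not called at 0.23. Col3a1 (chr1:45368383-45406551) and Col5a2 (chr1:45431166-45560127) lie 24614 bases apart on opposite strands, and both rose in TAC hearts and were higher at E13.5. Col6a2 and Col6a1 lie 85161 bases apart on chromosome 10 on the same strand. Col9a1 and Col19a1 lie 9205 bases apart on chromosome 1, and of these only Col9a1 was well above 0 at E13.5.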

How the data were processed

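Raw counts per feature, as deposited by the authors, were the only values used. The authors made these counts with Bowtie, TopHat 1.3.0 and HTSeq on mm9, per the submitters' processing notes, where DESeq and edgeR are listed too, with no role. The counting mode is not given in the sources used here. Libraries were non-stranded and single-end, per the labels' protocols. Summed counts equalled the total line, which was left out, in all 27 libraries. The embryos' age field climbs in steps from E13.5, and the titles' E13.5 was used.

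Members, gene lists and tests were chosen with earlier results of these data known. edgeR 4.0.16 and limma 3.58.1 in R 4.3.3 were used, with DESeq2 1.42.0 as an alternative. Ratios and figures used Python 3.11.15, numpy 2.4.6, pandas 2.3.3, scipy 1.17.1 and matplotlib 3.10.9. For each comparison features passed filterByExpr (minimum count 10, minimum total 15), were scaled by TMM and entered edgeR's quasi-likelihood test (robust setting), and Benjamini-Hochberg adjusted p under 0.05 over all features was called. The scripts were first tested on simulated counts. Standard errors divide the size of the log2 fold change by the root of its F statistic. CPM shown were scaled by TMM over all 27 libraries. Ratios used CPM per kb of free exon with 0.05 added to each CPM.

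Values per library are given for called chains with a mean of at least 5 CPM in a group, up to 12 per comparison by absolute change, and for 15 main chains. Partner genes with values were taken from the 5 called members of each list with the largest absolute change and a mean of at least 5 CPM. Lox in TAC, not called, was given besides. Other settings tried were DESeq2, limma-voom, scaling by RLE or by the upper quartile, no filter, all 27 libraries in 1 fit, sham hearts as the adult reference, thinned embryonic libraries, no libraries against their sex label, Y-linked class as a covariate, a replicate block and each library left out. A fit of the block's libraries without the block was chosen after seeing the data. Replicate numbers did not pair the libraries, since deviations of same-numbered libraries correlated at −0.187 to 0.163.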

Additional observations from a re-analysis of the deposited data

Results flagged for a closer look

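In groups of 4 to 7 libraries, 18 of 157 sets of collagen values (11.5%) held a highest or lowest library far from all the others by Dixon's 95% limit, which chance alone passes in about 1 in 20. E13.5 replicate 3 was the highest embryo in 7 of them. It had 2149 CPM of Col1a1, against 886 to 1389 CPM in the other embryos, and 209 CPM of Col12a1, against 61.5 to 119.8 CPM. It had 219 CPM of Col6a1, against 123 to 164 CPM in the other embryos, and 208 CPM of Col6a3, against 104 to 135 CPM. It had 53.6 CPM of Col6a6, against 15.9 to 30.4 CPM, 26.0 CPM of Col8a2, against 6.81 to 12.8 CPM, and 4.17 CPM of Col24a1, against 2.93 to 3.45 CPM. E13.5 replicate 4 had 26.3 CPM of Col9a3, against 10.4 to 14.6 CPM in the other embryos.

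Replicate 3 at 6 weeks was the lowest of its group in 4. It had 251 CPM of Col3a1, against 520.5 to 611 CPM in the other 6-week hearts, and 184 CPM of Col6a1, against 272 to 323 CPM. It had 54.0 CPM of Col6a3, against 110.0 to 135 CPM, and 16.5 CPM of Col18a1, against 33.7 to 43.4 CPM. At 16 weeks, replicate 2 had 283 CPM of Col3a1, against 352 to 383 CPM in the others, and replicate 5 had 0.883 CPM of Col4a6, against 5.47 to 8.21 CPM.

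TAC replicate 3 had 2101 CPM of Col3a1, against 837 to 1042 CPM in the other TAC hearts. TAC replicate 2 was lowest for Col15a1, at 388 CPM against 475 to 485 CPM, and for Col27a1, at 16.1 CPM against 20.3 to 21.1 CPM. Sham replicate 3 had 13.9 CPM of Col4a4, against 18.6 to 19.3 CPM in the other sham hearts.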

How the results depend on the processing

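Over the single chains, 331 of 352 values under the other settings kept their call or lack of one in TAC, 405 of 431 at E13.5 and 227 of 240 between the adult ages. A called value also had to keep its direction, while a value called in neither fit counted as kept even where its direction changed. By the same rule, 242 of 256, 664 of 684 and 275 of 288 were kept with 1 library left out. The number of chains called higher in TAC was 23, and 21 to 23 with 1 library left out. Lower calls in TAC, 0 in number, were 1 with DESeq2, with no filter, without libraries against their sex label and with the Y-linked class as a covariate, and 0 to 1 with 1 library left out. Lower calls at 16 weeks, 2 in number, were 4 with DESeq2, 6 with no filter, 1 with all 27 libraries in 1 fit, 1 without libraries against their sex label and 4 with the Y-linked class, and 1 to 8 with 1 library left out. At E13.5 Col4a1 turned to 0.16 with no filter. Of the chain ratios, 0 to 1 passed between the adult ages with 1 library left out, and in TAC no ratio test was made with a library left out. For those results the cause was not tested. With the replicate block, calls were 19 higher and 0 lower in TAC, 0 and 3 at 16 weeks, and 23 and 7 at E13.5, against 19 and 0, 0 and 2, and 24 and 8 from the same libraries without it. In those TAC and sham libraries Col14a1, Col22a1 and Col27a1 were not called with or without the block, Col3a1 was called only without it and Col6a3 only with it, and same-numbered libraries correlated at −0.088 to 0.033. The unoperated adult libraries were the shallowest, and 17 chains did not pass the count filter between the ages.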
